A study of Mus musculus with 20 samples.

Results

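The small leucine-rich proteoglycans described here are 9 genes, chosen by name: Dcn, Bgn, Aspn, Lum, Fmod, Prelp, Omd, Ogn and Podn. All 9 were found among the 47729 gene identifiers counted in each of 20 RNA-seq libraries of cultured mouse colon fibroblasts, the connective tissue cells of the gut wall. The cells came from C57BL6/J mice and grew on plates in Advanced DMEM F12 with 10% serum, and polyadenylated RNA was sequenced. The 5 groups of 4 libraries were fibroblasts given irradiated APTKA medium, APTKA medium, irradiated APTK medium or APTK medium, and untreated fibroblasts, whose titles also call them wild type. The media were conditioned by organoids of the lines APTKA and APTK, names that the labels do not expand, and acted for 24 h. The irradiated arms received 5 fractions of 2 Gy, and the labels do not say whether organoids or fibroblasts were exposed. There was neither an irradiated untreated group nor a group given unconditioned organoid medium. The series' title places the work in rectal cancer, on fibroblasts in an inflammatory state and on tumours that resist treatment before surgery.

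Small leucine-rich proteoglycans are secreted matrix proteins whose core is a curved stack of leucine-rich repeats. The core binds collagen fibrils and sets their diameter and spacing, and most members carry chondroitin, dermatan or keratan sulfate chains. Free or collagen-bound members also bind growth factors such as TGF-beta and cell surface receptors. The family is divided into classes by sequence: Dcn (decorin), Bgn (biglycan) and Aspn (asporin) are class I, Lum (lumican), Fmod (fibromodulin), Prelp and Omd (osteomodulin) class II, Ogn (osteoglycin, or mimecan) class III and Podn (podocan) class V. Fibroblasts are a main source of decorin, biglycan and lumican in connective tissue.

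Most of the 9 genes lie in small clusters of the mm10 genome. Dcn (ENSMUSG00000019929, chromosome 10, 97479609 to 97518143, plus strand) and Lum (ENSMUSG00000036446, 97565128 to 97572703, plus strand) span 93.1 kb together. Prelp (ENSMUSG00000041577, chromosome 1, 133910304 to 133921414, minus strand) and Fmod (ENSMUSG00000041559, 134037254 to 134048277, plus strand) span 138 kb. Aspn (ENSMUSG00000021388, chromosome 13, 49544443 to 49567565), Omd (ENSMUSG00000048368, 49582462 to 49592822) and Ogn (ENSMUSG00000021390, 49608046 to 49624501) follow each other on the plus strand within 80.1 kb. Podn (ENSMUSG00000028600, chromosome 4, 108014791 to 108096445, minus strand) and Bgn (ENSMUSG00000031375, chromosome X, 73483602 to 73495933, plus strand) stand alone. Prelp shares 350 exon bases, 9.68% of its exon length, with the antisense gene Gm15851, which had between 0 and 2 counts in each library. Aspn shares 7 exon bases with Cenpp on the opposite strand, and the counting is not stated to use strand. Omd, Ogn and Podn overlap other genes only outside exons, and the other 4 overlap none.

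The 250 bases before the start site were available from RefSeq (GRCm38.p6, the build of the counts) for 7 members, all but Dcn and Lum. The 4 printed here belong to the 3 genes with the lowest levels in APTKA medium relative to untreated cells, Fmod, Prelp and Podn, and to Ogn, the gene that differed least. Each runs 5′ to 3′ on the gene's own strand up to the base before its start, and capitals mark matches on either strand to the motifs searched. The windows are chr1:134037004-134037253 (plus) for Fmod, chr1:133921402-133921651 (minus) for Prelp, chr4:108031955-108032204 (minus) for Podn, where the outermost of its RefSeq starts is shown, and chr13:49607765-49608014 (plus) for Ogn. The span given above for Podn begins farther upstream, at 108096445 on the minus strand, so the Podn window lies inside that span.
Fmod: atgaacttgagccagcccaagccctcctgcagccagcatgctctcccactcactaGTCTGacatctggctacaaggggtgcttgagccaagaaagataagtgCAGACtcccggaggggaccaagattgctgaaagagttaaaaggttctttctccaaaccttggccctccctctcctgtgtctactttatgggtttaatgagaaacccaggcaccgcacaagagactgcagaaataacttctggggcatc
Prelp: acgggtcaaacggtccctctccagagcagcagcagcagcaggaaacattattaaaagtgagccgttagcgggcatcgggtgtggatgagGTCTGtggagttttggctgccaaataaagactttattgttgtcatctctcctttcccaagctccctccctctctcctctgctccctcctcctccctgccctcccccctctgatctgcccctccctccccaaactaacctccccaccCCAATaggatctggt
Podn: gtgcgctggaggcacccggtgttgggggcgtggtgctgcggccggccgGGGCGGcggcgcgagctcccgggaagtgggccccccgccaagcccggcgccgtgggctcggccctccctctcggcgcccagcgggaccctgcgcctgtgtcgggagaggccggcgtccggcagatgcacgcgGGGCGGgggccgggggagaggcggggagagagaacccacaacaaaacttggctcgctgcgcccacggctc
Ogn: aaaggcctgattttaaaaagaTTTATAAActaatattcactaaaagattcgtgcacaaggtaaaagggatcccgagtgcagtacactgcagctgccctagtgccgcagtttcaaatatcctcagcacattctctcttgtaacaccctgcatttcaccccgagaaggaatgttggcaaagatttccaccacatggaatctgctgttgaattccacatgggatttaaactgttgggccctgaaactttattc
The motifs were the TATA box TATAAA, the CCAAT box CCAAT, the GC box GGGCGG, the AP-1 site TGANTCA, the SMAD element CAGAC and the NF-kB site, the last by a longer degenerate pattern. The SMAD element was found in 2 of 7 members, Fmod and Prelp, and in 42.2% of 32851 windows of this length. TATA boxes were found in 2 of 7 members, Aspn and Ogn, against 12.4% of windows. CCAAT boxes stood in 2 of 7 (Aspn and Prelp, 33.8% of windows) and GC boxes in 2 of 7 (Bgn and Podn, 32.7%). These letters of the AP-1 site (6.75% of windows) and of the NF-kB site (7.25%) were in none of the 7 windows. The Podn window was 78.0% G and C with 32 CpG pairs, against 42.0% with 4 for Ogn, 51.2% with 2 for Fmod and 55.6% with 5 for Prelp, and a median of 52.4% with 6 over all windows. A match is a description of the letters and not of binding.

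Library totals lay between 17.3 and 31.6 M counts. Of 7 fibroblast markers all were detected in every library, and their summed level lay at 28280 to 36740 CPM (read counts per M counts of the library, with TMM-scaled totals) in irradiated APTKA medium, 26940 to 30870 in APTKA medium, 37930 to 47620 in irradiated APTK medium, 44760 to 50160 in APTK medium and 52500 to 59400 CPM in untreated cells. All 8 markers of pericytes and smooth muscle cells were also detected, led by Myh11 at 194.9 to 382.8 CPM. Their sum was 421.3 to 479.5 CPM in irradiated APTKA medium, 419.3 to 459.6 in APTKA medium, 678.7 to 791.3 in irradiated APTK medium, 659.4 to 779.8 in APTK medium and 635.2 to 728.4 CPM in untreated cells. Both sums were lower in the APTKA libraries, as were most of the 9 proteoglycan transcripts, and their part in the results was not tested. The fibroblast sum was led by the collagen genes Col3a1, Col1a1 and Col1a2, at no less than 11030, 6764 and 6664 CPM. It was also lower in both APTK groups than in untreated cells. Epcam, Ptprc and Cdh5, which define epithelial cells, leukocytes and endothelium, reached at most 0.105, 0.195 and 0.0400 CPM, and the T cell marker Cd3e was at 0 in all libraries. The bone markers Sp7, Bglap and Ibsp reached at most 0.183, 0.0765 and 0.0384 CPM. Of the same list of bone and cartilage markers, Runx2 lay at 5.49 to 11.26 CPM, and Sox9 and Col2a1 reached 1.88 and 0.432 CPM. Whether the 4 replicates of a group were separate cultures or separate animals is not stated, and the p-values reflect only the spread among libraries, part of which may be technical.

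Per kilobase of exon, 4 transcripts made up nearly all of the family in these fibroblasts. Aspn, Dcn, Ogn and Bgn together held 98.8 ± 0.231% of the summed level per length in irradiated APTKA medium, 98.6 ± 0.294% in APTKA medium, 97.7 ± 0.239% in irradiated APTK medium, 97.6 ± 0.127% in APTK medium and 97.3 ± 0.249% in untreated cells (SD, n = 4 each). The summed level of all 9 was 1106 ± 72.5 CPM per kb in irradiated APTKA medium and 1084 ± 70.6 in APTKA medium, against 1902 ± 234.9 in irradiated APTK medium, 2011 ± 95.6 in APTK medium and 1732 ± 88.4 CPM per kb in untreated cells. No APTKA library (989.5 to 1197 CPM per kb) reached the lowest library of the other groups (1605 CPM per kb). The 9 genes took 0.401 ± 0.0302% of all counts in irradiated APTKA medium, 0.415 ± 0.0169% in APTKA medium, 0.693 ± 0.0946% in irradiated APTK medium, 0.725 ± 0.0472% in APTK medium and 0.616 ± 0.0466% in untreated cells.

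Aspn had the highest level per length in every group, from 397.3 ± 42.1 CPM per kb in APTKA medium to 794.1 ± 32.2 CPM per kb in APTK medium. The order between genes rests on union exon lengths, 2354 bases for Aspn, 2566 for Ogn, 5838 for Dcn and 6099 for Bgn. By CPM, without division by length, Dcn was the highest in every group. Dcn had 1424 CPM in APTKA medium and 2501 CPM in untreated cells, against 935.3 and 1618 CPM for Aspn. Per length, Ogn and Dcn followed Aspn, and their order differed between groups. In APTKA medium Ogn had 314.5 ± 30.6 CPM per kb and Dcn 243.9 ± 19.4 CPM per kb, with no overlap of the 4 libraries. In untreated cells Dcn had 428.3 ± 40.2 and Ogn 359.6 ± 24.0 CPM per kb, and the libraries of this pair overlapped, as they did in both APTK groups. Ogn made up 29.0 ± 1.13% of the summed level per length in APTKA medium and 28.2 ± 1.26% in irradiated APTKA medium, against 19.9 ± 3.08% in irradiated APTK medium, 24.0 ± 0.843% in APTK medium and 20.8 ± 0.786% in untreated cells. Bgn came after these 3 in all groups and Lum after Bgn, each apart from its neighbours in the order. The 4 low members changed places: in untreated cells the order was Podn (8.90 CPM per kb), Fmod (5.73), Prelp (4.15) and Omd (1.76), whereas in APTKA medium it was Podn (1.54 CPM per kb), Omd (0.819), Fmod (0.395) and Prelp (0.381). The libraries of Fmod and Prelp overlapped in both of these groups, and each other pair of neighbours among these 4 was apart.

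**Figure D1:**
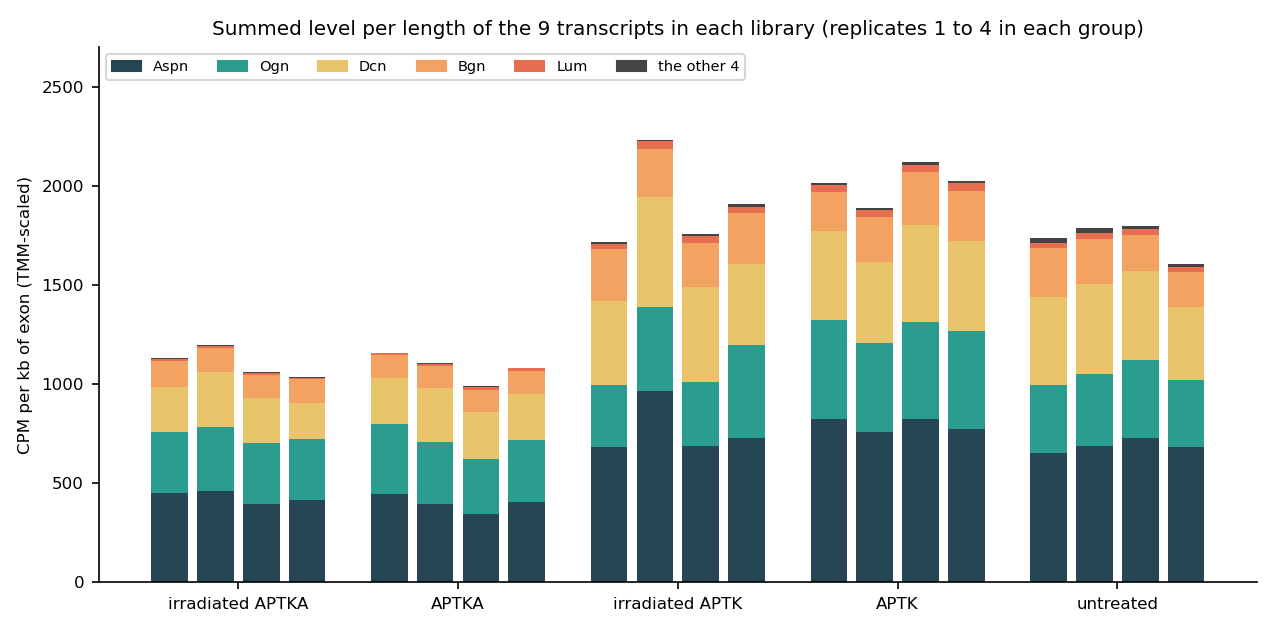
Stacked bars of the level per length (CPM per kb of exon, y axis) of Aspn, Dcn, Ogn, Bgn, Lum and the other 4 transcripts in each of the 20 libraries (x axis, by group). The 8 APTKA bars end between 989.5 and 1197 CPM per kb and the other 12 between 1605 and 2232 CPM per kb.

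The class I genes encode the most widely expressed collagen-binding members. Dcn, whose product binds collagen I and TGF-beta, had 1324, 1609, 1353 and 1080 CPM in irradiated APTKA medium, 1351, 1593, 1378 and 1374 in APTKA medium, 2496, 3229, 2808 and 2397 in irradiated APTK medium, 2609, 2398, 2852 and 2671 in APTK medium and 2585, 2647, 2619 and 2151 CPM in untreated cells. Bgn, the closest relative of decorin and a ligand of Toll-like receptors, had 807.1, 736.2, 697.2 and 730.9 CPM in irradiated APTKA medium, 703.4, 656.9, 695.5 and 706.8 in APTKA medium, 1576, 1486, 1339 and 1551 in irradiated APTK medium, 1193, 1386, 1631 and 1520 in APTK medium and 1504, 1397, 1111 and 1088 CPM in untreated cells. Aspn, which carries an aspartate-rich stretch and lacks the usual glycosaminoglycan chain, had 1061, 1080, 935.5 and 974.2 CPM in irradiated APTKA medium, 1048, 936.3, 806.9 and 950.0 in APTKA medium, 1613, 2274, 1625 and 1719 in irradiated APTK medium, 1934, 1790, 1935 and 1818 in APTK medium and 1532, 1617, 1716 and 1608 CPM in untreated cells. For each of these 3 genes all 8 APTKA libraries lay below all 12 others. The share of all genes separated in this way was not counted. Between pairs of groups, 27.3% of all genes had APTKA libraries below untreated ones with no overlap, and 29.9% below APTK ones. Aspn libraries in APTK medium lay above the untreated ones with no overlap, while those of Dcn and Bgn overlapped.

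The class II genes encode members of which many carry keratan sulfate chains. Lum, a regulator of fibril growth best known from the cornea, had 24.6, 34.3, 26.6 and 16.6 CPM in irradiated APTKA medium, 21.4, 35.6, 33.9 and 28.2 in APTKA medium, 68.0, 92.4, 89.1 and 78.2 in irradiated APTK medium, 90.1, 81.3, 95.9 and 97.0 in APTK medium and 64.8, 72.9, 70.1 and 54.0 CPM in untreated cells. Its APTKA libraries were all below the untreated ones and its APTK libraries all above, and irradiated APTK libraries overlapped the untreated ones. Fmod, which guides fibril assembly and collagen crosslinking in tendon, had 1.51, 1.55, 1.44 and 0.788 CPM in irradiated APTKA medium, 1.08, 1.86, 1.35 and 0.941 in APTKA medium, 4.23, 3.04, 4.00 and 6.75 in irradiated APTK medium, 4.38, 4.82, 5.85 and 5.18 in APTK medium and 21.9, 20.7, 18.04 and 15.2 CPM in untreated cells. The values fell into 3 ranges with no overlap, lowest with either APTKA medium, intermediate with either APTK medium and highest in untreated cells.

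Prelp, a proline and arginine-rich member that links basement membrane perlecan with collagen, had 1.91, 1.61, 2.06 and 0.752 CPM in irradiated APTKA medium, 1.18, 1.37, 1.48 and 1.49 in APTKA medium, 9.23, 10.1, 9.22 and 17.1 in irradiated APTK medium, 9.60, 11.9, 18.4 and 14.6 in APTK medium and 22.4, 17.2, 10.8 and 9.63 CPM in untreated cells. Its APTKA libraries were far below the rest, and the APTK and untreated libraries overlapped widely. Omd, known as a bone and tooth matrix protein, was the scarcest in untreated cells. It had 2.27, 1.92, 2.25 and 2.72 CPM in irradiated APTKA medium, 2.22, 1.82, 1.48 and 1.84 in APTKA medium, 2.36, 2.98, 2.49 and 2.85 in irradiated APTK medium, 2.77, 2.60, 3.37 and 3.10 in APTK medium and 3.32, 3.80, 4.22 and 4.52 CPM in untreated cells. The groups lay close together and only some were apart, at 34 to 121 counts a library.

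Ogn, whose product shapes collagen fibrils and was first described from bone, had 787.0, 833.7, 778.5 and 790.8 CPM in irradiated APTKA medium, 909.3, 798.6, 718.2 and 801.5 in APTKA medium, 790.6, 1089, 819.7 and 1198 in irradiated APTK medium, 1290, 1141, 1255 and 1267 in APTK medium and 890.5, 932.3, 1005 and 863.4 CPM in untreated cells. The APTK libraries stood above those of untreated and APTKA cells with no overlap, and the irradiated APTK libraries were spread over most of the range of the other groups. Podn, a collagen-binding member that restrains smooth muscle cell growth, had 6.27, 6.50, 6.17 and 4.80 CPM in irradiated APTKA medium, 7.03, 6.34, 6.48 and 6.47 in APTKA medium, 13.7, 12.3, 15.99 and 20.6 in irradiated APTK medium, 17.1, 20.0, 22.1 and 21.2 in APTK medium and 43.5, 40.9, 36.3 and 31.2 CPM in untreated cells. Like Fmod it fell into 3 separate ranges in the same order. Among irradiated APTK libraries replicate 4 was the highest for Fmod, Prelp, Ogn and Podn. Among untreated libraries replicate 1 was the highest and replicate 4 the lowest for Bgn, Fmod, Prelp and Podn, and the reverse held for Omd.

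**Figure D2:**
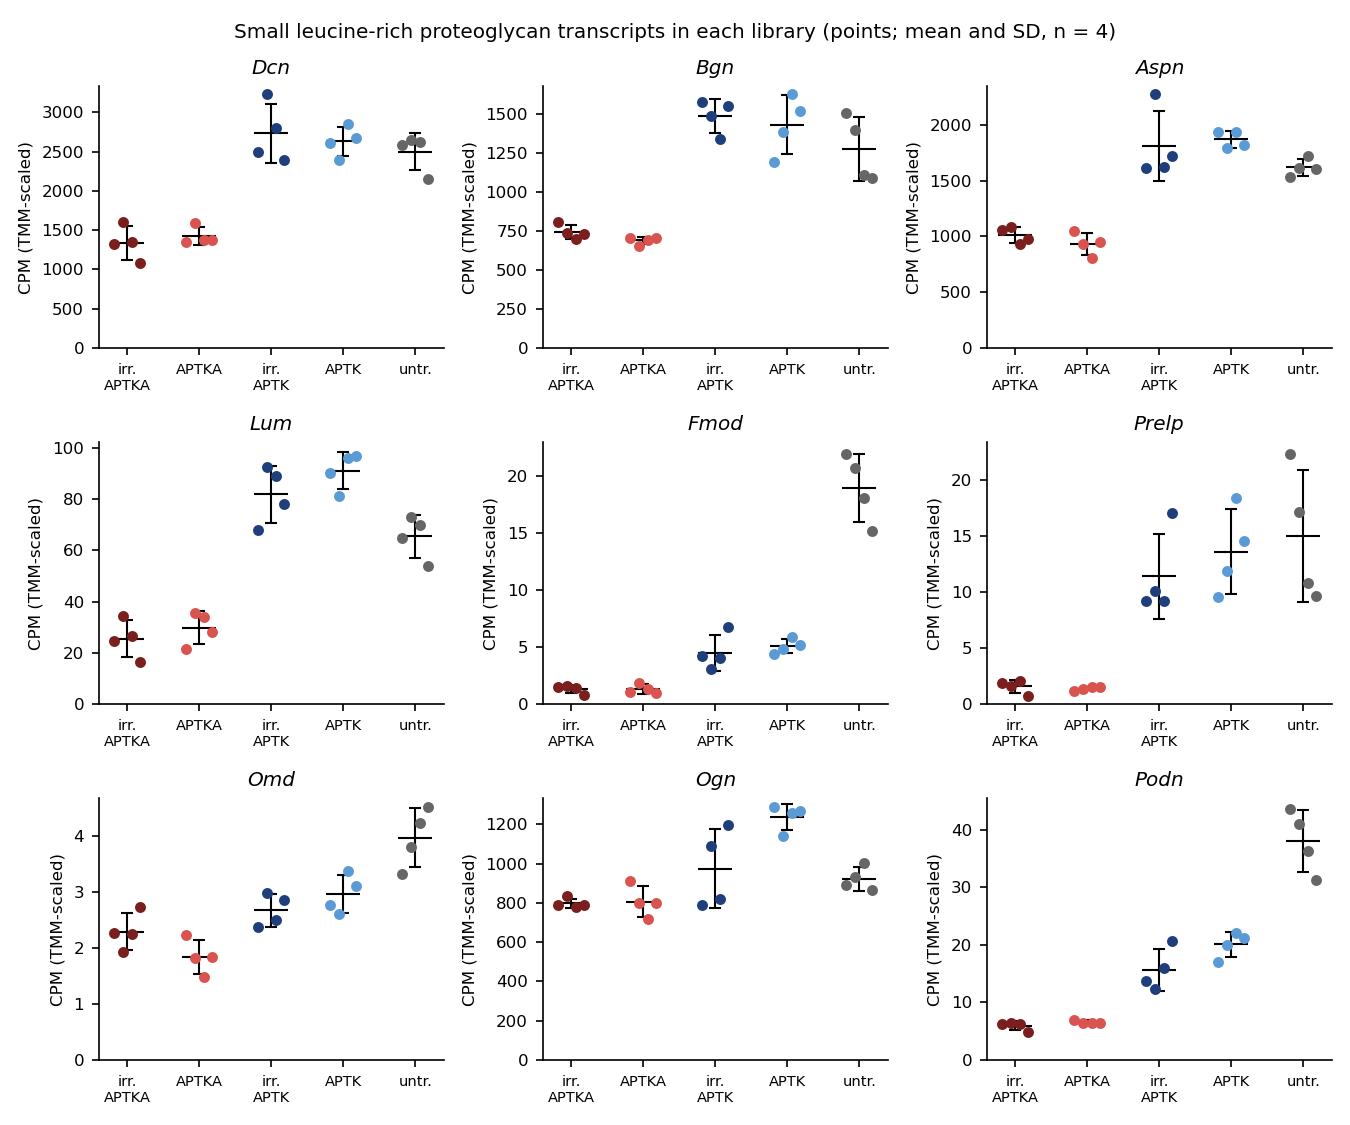
Each panel shows 1 gene, with CPM (TMM-scaled) on the y axis from 0, the 5 groups on the x axis (irr. marks the irradiated arms), a point per library and the group mean with its SD (n = 4). The APTKA groups are below all others for Dcn, Bgn, Aspn, Lum, Fmod, Prelp and Podn, and Ogn has its highest mean, 1238 CPM, in APTK medium. The share of all genes separated in this way was not counted.

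APTKA medium was compared with no treatment to ask how this organoid medium changes the fibroblasts. Most of the family was lower: 8 of 9 members fell with APTKA medium and none rose. The largest differences were in 3 low members, 14.4-fold for Fmod (1.31 ± 0.405 CPM in APTKA medium and 18.9 ± 2.98 in untreated cells), 10.9-fold for Prelp (1.38 ± 0.145 in APTKA medium and 15.0 ± 5.92 in untreated cells) and 5.76-fold for Podn (6.58 ± 0.306 in APTKA medium and 38.0 ± 5.42 in untreated cells; SD, n = 4 each). The abundant Dcn, Bgn and Aspn fell by 1.76, 1.85 and 1.73-fold, and Ogn did not pass the test. In bulk RNA a lower level cannot be told apart from fewer cells that express the gene.

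Of all 14820 genes tested by edgeR's quasi-likelihood test, 29.9% were called lower, 31.5% higher and 61.4% in either direction at a false discovery rate of 5%. The median log2 fold change of the 9 was -1.10, and that of all genes was 0.00. Fmod stood at -3.85 ± 0.216 (log2 fold change ± SE, adjusted p = 4.41e-13), Prelp -3.45 ± 0.362 (2.52e-07) and Podn -2.53 ± 0.135 (7.97e-14). Lum fell by 1.14 ± 0.186 on the log2 scale (4.82e-05) and Omd by 1.10 ± 0.148 (2.98e-07). In class I, Bgn fell by 0.88 ± 0.0946 (2.01e-08), Dcn by 0.81 ± 0.104 (5.67e-07) and Aspn by 0.79 ± 0.0878 (2.19e-08). The 95% interval for Ogn was -0.40 to 0.01 around -0.19 (adjusted p = 0.097 by edgeR). Without APTKA replicate 1, Ogn passed at -0.25 (adjusted p = 0.0406), and it also passed in a fit of only these groups at -0.19 (0.0145). The libraries of the groups did not overlap for the 8 that fell, against 27.3% of all genes tested with APTKA libraries below.

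Irradiated APTKA medium was set against the same untreated libraries, so the comparison shares its controls with the preceding one. Here too 8 of 9 members fell and none rose, where 30% of all genes were called lower, 31% higher and 61% in either direction. The libraries of all 9 lay below the untreated ones with no overlap, as did those of 28.3% of all genes. Fmod stood at -3.83 ± 0.214 (log2 fold change ± SE), Prelp at -3.24 ± 0.350 and Podn at -2.68 ± 0.136, each with an edgeR adjusted p of at most 3.63e-07. Lum had -1.35 ± 0.188, Dcn -0.90 ± 0.105, Omd -0.80 ± 0.142, Bgn -0.78 ± 0.0944 and Aspn -0.68 ± 0.0876, all past the threshold. Ogn had -0.21 ± 0.0993 (adjusted p = 0.0718), with 797.5 ± 24.7 CPM in irradiated APTKA medium and 922.8 ± 61.7 CPM in untreated cells. It passed with upper quartile scaling (-0.26, adjusted p = 0.034) and in a fit of only these groups (-0.22, 0.00119).

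APTK medium was compared with no treatment to show what the medium of the second organoid line did. The members differed in direction: Ogn and Lum rose, Fmod, Podn and Omd fell, and Dcn, Bgn, Aspn and Prelp did not pass. Ogn averaged 1238 ± 66.5 CPM in APTK medium and 922.8 ± 61.7 CPM in untreated cells, and Fmod 5.06 ± 0.623 in APTK medium and 18.9 ± 2.98 CPM in untreated cells (SD, n = 4 each). By edgeR's test 20.9% of all genes were called higher, 22.5% lower and 43.4% in either direction. Of the 9 members 2 (22.2%) were called higher, near the share of all genes, and 3 (33.3%) lower. The median log2 fold change of the 9 was 0.07.

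Fmod stood at -1.90 ± 0.1799 (log2 fold change ± SE; edgeR, adjusted p = 1.37e-08), Podn -0.92 ± 0.122 (1.60e-06) and Omd -0.42 ± 0.139 (0.015). Ogn had 0.42 ± 0.0994 (0.00141) and Lum 0.48 ± 0.178 (0.0396). The Lum call was lost on leaving out untreated replicate 1 (0.47, adjusted p = 0.0758), 3 (0.51, 0.0545) or 4 (0.39, 0.114), or APTK replicate 1 (0.48, 0.0662), 3 (0.45, 0.0832) or 4 (0.45, 0.0858), and with no filter on low counts (0.49, 0.0814). The Omd call was lost without untreated replicate 4 (-0.35, 0.0605) or APTK replicate 2 (-0.37, 0.0566). Aspn stood at 0.21 ± 0.0872 (adjusted p = 0.0567) with separate libraries, and passed with upper quartile scaling (0.25), with unscaled totals (0.27), with no filter (0.22) and in a fit of only these groups (0.22). Bgn at 0.17 ± 0.0938 (0.155) passed without untreated replicate 1 (0.26, 0.0274) or APTK replicate 1 (0.25, 0.0312), and with no filter (0.18, 0.0194). Dcn had an interval of -0.14 to 0.29 and Prelp of -0.72 to 0.45.

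With irradiated APTK medium 3 of 9 members fell relative to the same untreated libraries and none rose, where 22.2% of all genes were called lower, 21.5% higher and 43.6% in either direction. Those that fell were again Fmod (-2.04 ± 0.185 log2, edgeR adjusted p = 7.06e-09), Podn (-1.27 ± 0.125, 1.90e-08) and Omd (-0.57 ± 0.144, 0.00201). Ogn had 974.3 ± 200.8 CPM in irradiated APTK medium and 922.8 ± 61.7 CPM in untreated cells (0.08 ± 0.0993, adjusted p = 0.556). Lum had 0.33 ± 0.179 (0.158) and passed in a fit of only these groups (0.32, 0.0344). Bgn had 0.22 ± 0.0939 (0.0584) and passed without untreated replicate 1 (0.31, 0.00834) or 2 (0.27, 0.0377) or irradiated APTK replicate 3 (0.27, 0.0323), and with upper quartile scaling (0.24), unscaled totals (0.25) or no filter (0.22). Aspn had 0.16 ± 0.0872 (0.145) and passed with no filter (0.16, 0.0432).

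**Figure D3:**
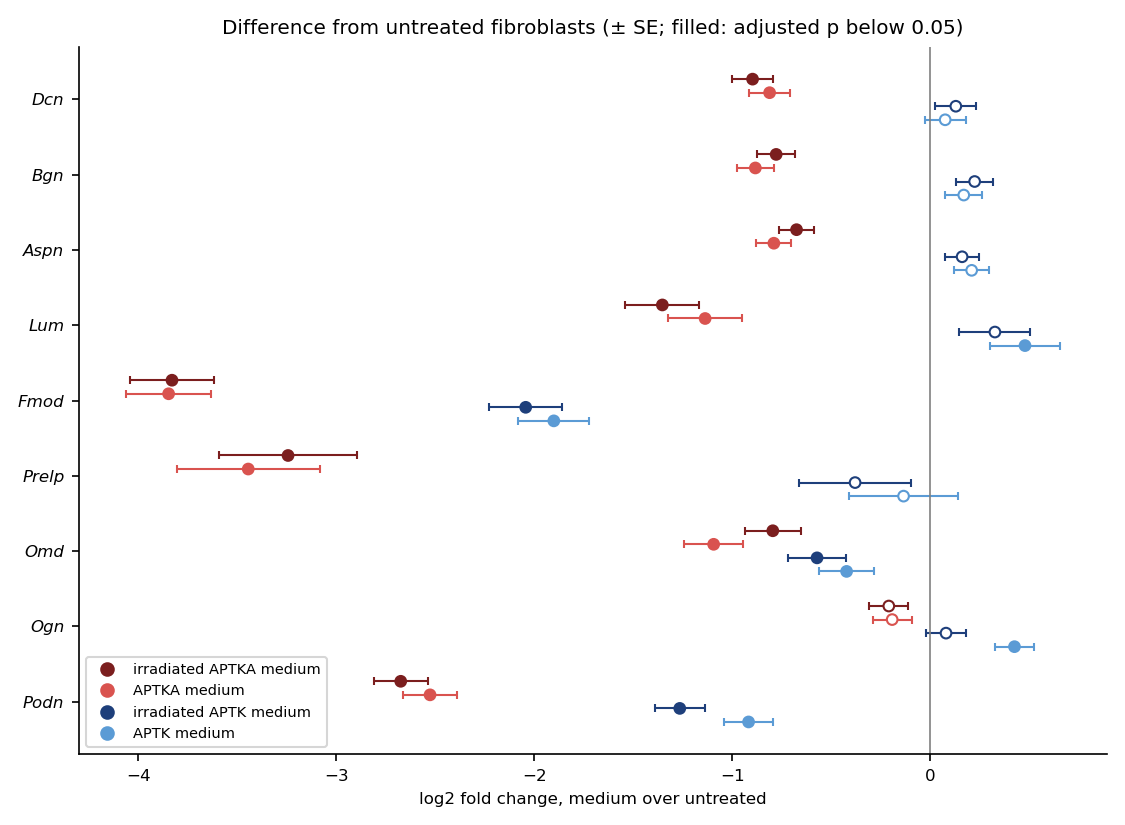
Log2 fold change over untreated cells (x axis) with bars of ± SE for each of the 9 genes (y axis) in the 4 media. Points are filled where the edgeR call passed at 5%. Fmod, Podn and Prelp lie farthest to the left with either APTKA medium, at -2.53 to -3.85, and Ogn and Lum are the filled points to the right of 0, both with APTK medium without irradiation.

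APTKA medium was compared with APTK medium to ask what separates the organoid lines, in libraries that shared no untreated control. All 9 members were lower with APTKA medium, where 31.8% of all genes were called lower, 31.1% higher and 62.9% in either direction. No library of any member overlapped between these groups, against 29.9% of all genes with APTKA libraries below. Prelp differed most, at 1.38 ± 0.145 CPM in APTKA medium and 13.6 ± 3.80 CPM in APTK medium, and Ogn least, at 806.9 ± 78.4 in APTKA medium and 1238 ± 66.5 CPM in APTK medium (SD, n = 4 each). The median log2 fold change of the 9 was -1.05, against -0.03 over all genes.

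The log2 fold change was -3.31 ± 0.363 SE for Prelp (edgeR, adjusted p = 4.42e-07), -1.95 ± 0.238 for Fmod (2.22e-07), -1.62 ± 0.186 for Lum (9.02e-07) and -1.61 ± 0.137 for Podn (4.22e-10). In class I, Bgn had -1.05 ± 0.0949 (1.19e-09), Aspn -0.999 ± 0.0881 (3.98e-10) and Dcn -0.89 ± 0.105 (1.63e-07). Omd had -0.67 ± 0.152 (0.000386) and Ogn -0.62 ± 0.0996 (1.16e-05). Class I genes ran from -0.89 to -1.05 and those of class II from -0.67 to -3.31.

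Among the irradiated arms 8 of 9 members were lower with irradiated APTKA medium than with irradiated APTK medium, where 31.2% of all genes were called lower, 30.1% higher and 61.3% in either direction. Prelp had a log2 fold change of -2.86 ± 0.357 SE, Fmod -1.79 ± 0.241, Lum -1.68 ± 0.188, Podn -1.41 ± 0.141, Dcn -1.03 ± 0.105, Bgn -1.002 ± 0.0948 and Aspn -0.84 ± 0.0878, each with an edgeR adjusted p of at most 2.29e-06. Ogn had -0.29 ± 0.0994 (adjusted p = 0.0154) with overlapping libraries. Its call was lost without irradiated APTK replicate 2 (-0.21, 0.117) or 4 (-0.17, 0.0939) and with unscaled totals (-0.22, 0.0819). Omd had 2.29 ± 0.330 CPM in irradiated APTKA medium and 2.67 ± 0.292 CPM in irradiated APTK medium and did not pass (-0.22 ± 0.152, 0.208; interval -0.54 to 0.09).

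Irradiation was tested within each medium, and no member passed either test by edgeR. Within APTKA medium 0 of 9 members were called, where 0.729% of all genes were called in either direction. Of the members 0 had an unadjusted p under 0.05, and DESeq2 called 0, where it called 2.27% of all genes. The log2 differences of irradiated over plain APTKA medium ran from -0.22 ± 0.192 SE for Lum to 0.30 ± 0.156 for Omd. The intervals were narrow for Ogn (-0.22 to 0.19) and Dcn (-0.30 to 0.13) and wide for Prelp (-0.79 to 1.19). Within APTK medium 0 of 9 members were called, against 1.38% of all genes. Ogn had 974.3 ± 200.8 CPM in irradiated APTK medium and 1238 ± 66.5 CPM in APTK medium (-0.35 ± 0.0994, adjusted p = 0.0846). Podn had 15.6 ± 3.65 CPM in irradiated APTK medium and 20.1 ± 2.204 CPM in APTK medium (-0.35 ± 0.128, 0.18). Ogn and Podn were the 2 members with an unadjusted p under 0.05. The share of all genes under this unadjusted threshold was not counted in any comparison. DESeq2 called 1 member, Ogn (-0.34, adjusted p = 0.0286), where it called 3.39% of all genes. Without irradiated APTK replicate 4 both passed, Ogn at -0.46 (adjusted p = 0.00161) and Podn at -0.51 (0.00603), where 8.45% of all genes were called. Both also passed with no filter on low counts (-0.36 for each), where 1.57% of all genes were called. The difference between the irradiation effects of the media, tested as an interaction, was called for 0 of 9 members by edgeR and by DESeq2. Of all genes, edgeR called 0.182% and DESeq2 0.894%. By edgeR 2 members, Omd and Ogn, had an unadjusted p under 0.05. The difference was 0.45 for Omd (interval 0.01 to 0.89, adjusted p = 0.543), 0.33 for Ogn (0.04 to 0.62, 0.481) and 0.45 for Prelp (-0.71 to 1.60, 0.872). The shares of all genes called moved widely when single libraries were left out. On leaving out 1 library at a time the share lay between 0.226% (without APTKA replicate 3) and 0.972% (without APTKA replicate 1) for irradiation within APTKA medium, and was 3.67% in a fit of only these groups. Within APTK medium it lay between 0.213% (without APTK replicate 3) and 8.45% (without irradiated APTK replicate 4), and was 0.0712% in a fit of only these groups. For the interaction it lay between 0.0266% (without APTKA replicate 2) and 2.04% (without irradiated APTK replicate 4).

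**Figure D4:**
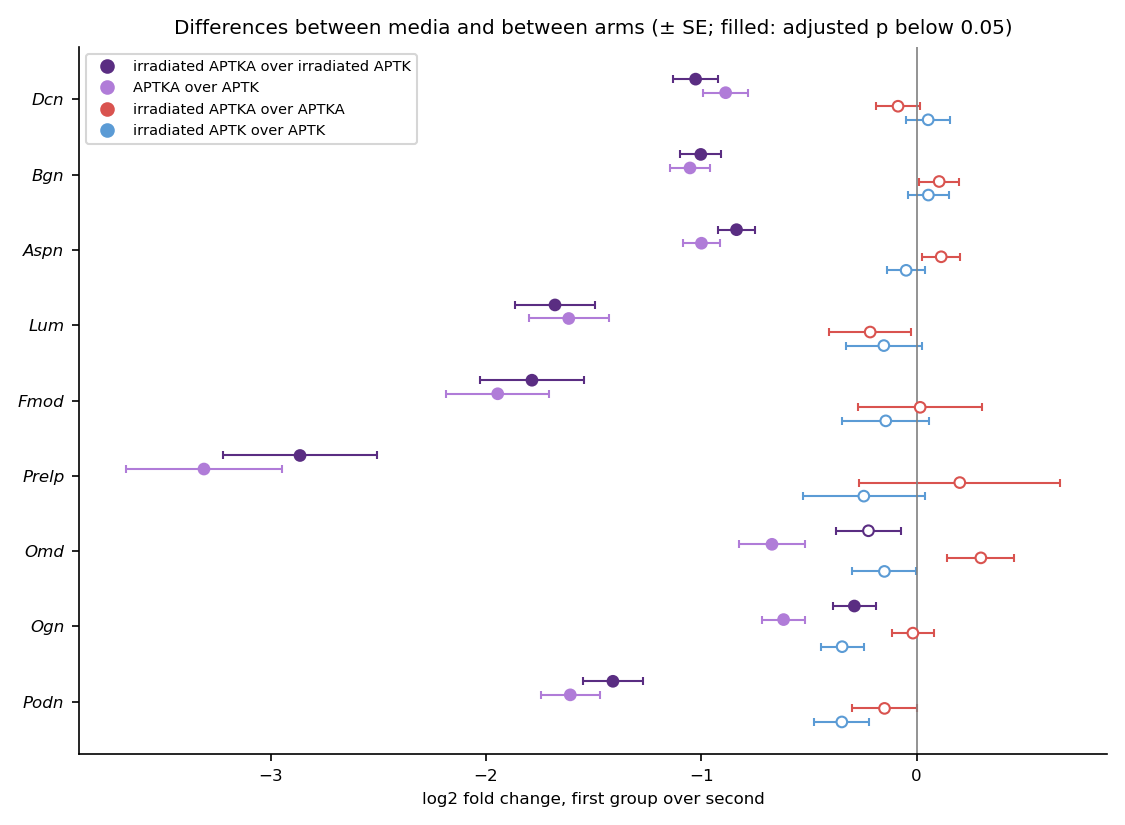
Log2 fold change with bars of ± SE (x axis) for each gene (y axis). Shown are APTKA over APTK medium without and with irradiation, and irradiation within each medium. Points are filled where the edgeR call passed at 5%. The differences between media run from -0.22 to -3.31, and the irradiation differences lie between -0.35 and 0.30 with no filled point.

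The ratio between genes that share a cluster differed between groups in several comparisons. On chromosome 1, the log2 ratio of Fmod to Prelp CPM was -0.12 ± 0.452 in APTKA medium and -1.40 ± 0.227 in APTK medium (SD, n = 4 each), a difference of 1.27 (exact two-sided permutation test, p = 0.0286, adjusted 0.0373 over 30 ratio tests). This p is the smallest that 4 against 4 libraries allow. Against the ratio of 0.41 ± 0.357 in untreated cells, the difference was -1.80 with APTK medium (exact permutation p = 0.0286) and -0.53 with APTKA medium (exact permutation p = 0.143). On chromosome 10 the log2 ratio of Lum to Dcn was -5.60 ± 0.272 in APTKA medium, -4.85 ± 0.0495 in APTK medium and -5.26 ± 0.0676 in untreated cells. Lum was thus lower relative to Dcn with APTKA medium than in untreated cells (-0.34) and higher with APTK medium (0.41), each with an exact permutation p of 0.0286. With irradiated APTKA medium the difference from untreated cells was -0.49 (exact permutation p = 0.0286) and with irradiated APTK medium 0.20 (exact permutation p = 0.0571).

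On chromosome 13 the log2 ratio of Ogn to Aspn was -0.21 ± 0.0336 in APTKA medium, -0.60 ± 0.0561 in APTK medium and -0.81 ± 0.0579 in untreated cells (SD, n = 4 each). All 3 differences between these groups had an exact permutation p of 0.0286, and the largest was 0.60, for APTKA medium over untreated cells. With irradiated APTKA medium this ratio differed from untreated cells by 0.47 (exact permutation p = 0.0286), and with irradiated APTK medium by -0.09 (exact permutation p = 0.571), against 0.22 with APTK medium. Omd, which lies between Aspn and Ogn, had a log2 ratio to Ogn of -8.79 ± 0.102 in APTKA medium and -8.72 ± 0.139 in APTK medium, which differed by -0.07 (exact permutation p = 0.457). In untreated cells this ratio was -7.87 ± 0.208, higher than with any of the 4 media by 0.58 to 0.91 (exact permutation p = 0.0286 for each).

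The genes whose pattern over the 5 group means was most like that of a member were found among 10127 genes with a mean log2 CPM of at least 2, by the root mean square difference of centred log2 CPM. For Bgn they were Lgmn, a lysosomal protease (0.0259), and Kxd1 (0.0300). Dcn had Mab21l2 (0.0309) and Vkorc1 (0.0329), a vitamin K cycle enzyme, and Aspn had Pou6f1 (0.0262) and Prrx2 (0.0302), both homeobox factors. Ogn was nearest to Plppr3 (0.0213) and Ddit4 (0.0255), and Omd to Col5a1 (0.0324), a fibril collagen chain, and Sdc1 (0.0469), syndecan-1. Lum had Tle2 (0.0634) and C1qtnf7 (0.0952). Prelp, Podn and Fmod had looser neighbours: Prelp had the iron exporter Slc40a1 (0.116) and the growth factor Igf1 (0.130), Podn had Gas2 (0.136) and Fndc1 (0.157), and Fmod had Csdc2 (0.209) and Sema5a (0.275). Between members the smallest difference was 0.0635, for Bgn and Aspn, and the largest 1.35, for Prelp and Ogn. Fmod was closer to Podn (0.453) than to its neighbour Prelp (0.711). These values describe 5 means of the same libraries.

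Among the other members of the family Tsku (tsukushi) had 28.3 to 42.8 CPM, and the group means of the rest ran up to 21.2 CPM, for Ecm2 in untreated cells. Kera and Nyx did not pass the filter on low counts, with at most 0.172 and 0.240 CPM. Of the other 7, 1 rose and 3 fell with APTKA medium over untreated cells (median log2 fold change -0.60), 2 rose and 2 fell with APTK medium (-0.11), and 5 were lower and none higher with APTKA than with APTK medium (-0.86). For these and the following lists, the shares of all genes called higher and lower were 31.5% and 29.9% with APTKA medium over untreated cells, 20.9% and 22.5% with APTK medium over untreated cells, and 31.1% and 31.8% with APTKA over APTK medium. Ecm2, which encodes a matrix protein with leucine-rich repeats, had 6.35 CPM in APTKA medium, 12.0 in APTK medium and 21.2 CPM in untreated cells on average. Its log2 fold change over untreated cells was -1.74 ± 0.109 SE with APTKA medium (edgeR, adjusted p = 1.27e-13) and -0.82 ± 0.103 with APTK medium (2.79e-07). Podnl1 went the other way, averaging 8.89 CPM in APTKA medium, 11.85 in APTK medium and 4.635 CPM in untreated cells. With APTK medium over untreated cells its log2 fold change was 1.35 ± 0.116 SE (edgeR, adjusted p = 3.83e-10). Epyc (epiphycan) averaged 0.0575 CPM in APTKA medium and 0.628 CPM in untreated cells (-3.37 ± 0.426, 1.02e-07), its APTKA level being near that of single counts.

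The enzymes that build the sulfated chains were mixed in direction. Of 21 tested genes of chondroitin and dermatan sulfate synthesis 3 rose and 11 fell with APTKA medium over untreated cells (median log2 fold change -0.29), and 4 rose and 9 fell with APTK medium (-0.09). With APTKA over APTK medium 5 were higher and 10 lower. The shares that fell, 52.4% with APTKA medium and 42.9% with APTK medium, stood beside 29.9% and 22.5% of all genes. Chsy3, a chain polymerase, had 8.48 CPM in APTKA medium and 21.8 CPM in untreated cells (-1.36 ± 0.149 SE, edgeR adjusted p = 5.04e-08), and Csgalnact1, which starts the chondroitin chain, 57.6 in APTKA medium and 129 CPM in untreated cells (-1.16 ± 0.0530, 1.56e-16). Pxylp1, the xylose phosphatase that lets chains extend, rose in both, to 29.1 CPM in APTKA medium (1.21 ± 0.0806) and 21.9 CPM in APTK medium (0.80 ± 0.0816), against 12.6 CPM in untreated cells. Chst15, a sulfotransferase, had 11.9 CPM in APTKA medium and 31.0 CPM in APTK medium (-1.38 ± 0.0764, 1.14e-14). Of 6 tested genes of keratan sulfate synthesis 1 rose and 2 fell with APTKA medium and 1 rose with APTK medium. Of 10 genes of sulfate and sugar donor supply 6 fell and none rose with APTKA medium (median -0.52), and 6 fell and 3 rose with APTK medium (-0.19). The genes that fell with APTKA medium, 60.0% beside 29.9% of all genes, included Papss2, which makes the sulfate donor (34.8 CPM in APTKA medium, 63.0 CPM in untreated cells; -0.86 ± 0.0553, 2.18e-13).

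Most of the collagens that these proteoglycans coat fell with APTKA medium. Of 13 fibril and beaded-filament collagen genes 10 fell and none rose with APTKA medium over untreated cells (median log2 fold change -1.005), which is 76.9% lower beside 29.9% of all genes. With APTK medium 5 fell and none rose (-0.13; 38.5% lower beside 22.5% of all genes), and 10 were lower and 1 higher with APTKA than with APTK medium (-0.63). Col11a1, a fibril-nucleating chain, had 118.5 CPM in APTKA medium and 552.4 CPM in untreated cells (-2.22 ± 0.0690 SE, edgeR adjusted p = 3.60e-20). Col14a1, a fibril-associated collagen, was lower with both media, at 19.6 CPM in APTKA medium, 30.3 in APTK medium and 88.2 CPM in untreated cells. Col3a1 fell with APTKA medium (-1.06 ± 0.0866) and with APTK medium (-0.53 ± 0.0859), while Col1a1 fell with APTKA medium (-0.75 ± 0.125) and stood at -0.11 ± 0.124 with APTK medium (adjusted p = 0.492).

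Among 9 receptors that bind the proteoglycans 3 rose and 2 fell with APTKA medium over untreated cells (33.3% and 22.2%), shares near the 31.5% and 29.9% of all genes. With APTK medium over untreated cells 1 rose and 4 fell, and 7 were higher and 1 lower with APTKA than with APTK medium (77.8% higher, beside 31.1% of all genes). Those that rose over untreated cells were Tlr2 (6.45 CPM in APTKA medium, 2.62 CPM in untreated cells; log2 fold change 1.31 ± 0.146 SE), its co-receptor Cd14 (4.39 CPM in APTKA medium, 1.27 CPM in untreated cells; 1.78 ± 0.147) and the hyaluronan receptor Cd44 (361.7 CPM in APTKA medium, 144.4 CPM in untreated cells; 1.33 ± 0.106). Tlr4, the other receptor of biglycan, had 44.8 CPM in APTK medium and 73.6 CPM in untreated cells (-0.72 ± 0.0726, edgeR adjusted p = 7.74e-09). Of 7 growth factors bound by the family 4 rose and 2 fell with APTKA medium (57.1% and 28.6%, beside 31.5% and 29.9% of all genes) and 3 rose and 1 fell with APTK medium. Bmp2 averaged 6.16 CPM in APTKA medium and 0.0693 CPM in untreated cells, and Ccn2 (CTGF) 2982 in APTKA medium, 1793 in APTK medium and 1010 CPM in untreated cells. The TGF-beta genes differed: with APTKA medium over untreated cells Tgfb2 rose (1.41 ± 0.0785), Tgfb3 fell (-0.66 ± 0.0533) and Tgfb1 stood at -0.10 ± 0.110 (adjusted p = 0.426).

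Of 12 tested proteases that process or cleave the family 4 rose and 6 fell with APTKA medium over untreated cells, and none rose and 6 fell with APTK medium. The rises with APTKA medium (33.3%) were near the 31.5% of all genes, and those that fell, 6 of 12 with each medium, stood beside 29.9% and 22.5% of all genes. Mmp13, a collagenase that also cuts fibromodulin, had 3.17 CPM in APTKA medium, 0.237 in APTK medium and 0.614 CPM in untreated cells, higher with APTKA than with APTK medium by 3.69 ± 0.281 SE (edgeR, adjusted p = 7.77e-12). Of 18 tested core proteins of other proteoglycans 2 rose and 11 fell with APTKA medium (median -0.59) and 6 rose and 6 fell with APTK medium (-0.17). The share lower with APTKA medium was 61.1%, beside 29.9% of all genes, and with APTK medium 33.3%, beside 22.5%. Gpc6 and Gpc4, glypicans of the cell surface, fell with APTKA medium (-1.56 ± 0.0760 and -1.48 ± 0.0690). Vcan, the large matrix proteoglycan versican, had 139.9 CPM in APTKA medium and 140.1 CPM in untreated cells (0.00 ± 0.0800, adjusted p = 0.983) and 87.5 CPM in APTK medium (-0.68 ± 0.0810 over untreated cells, 2.55e-07).

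**Figure D5:**
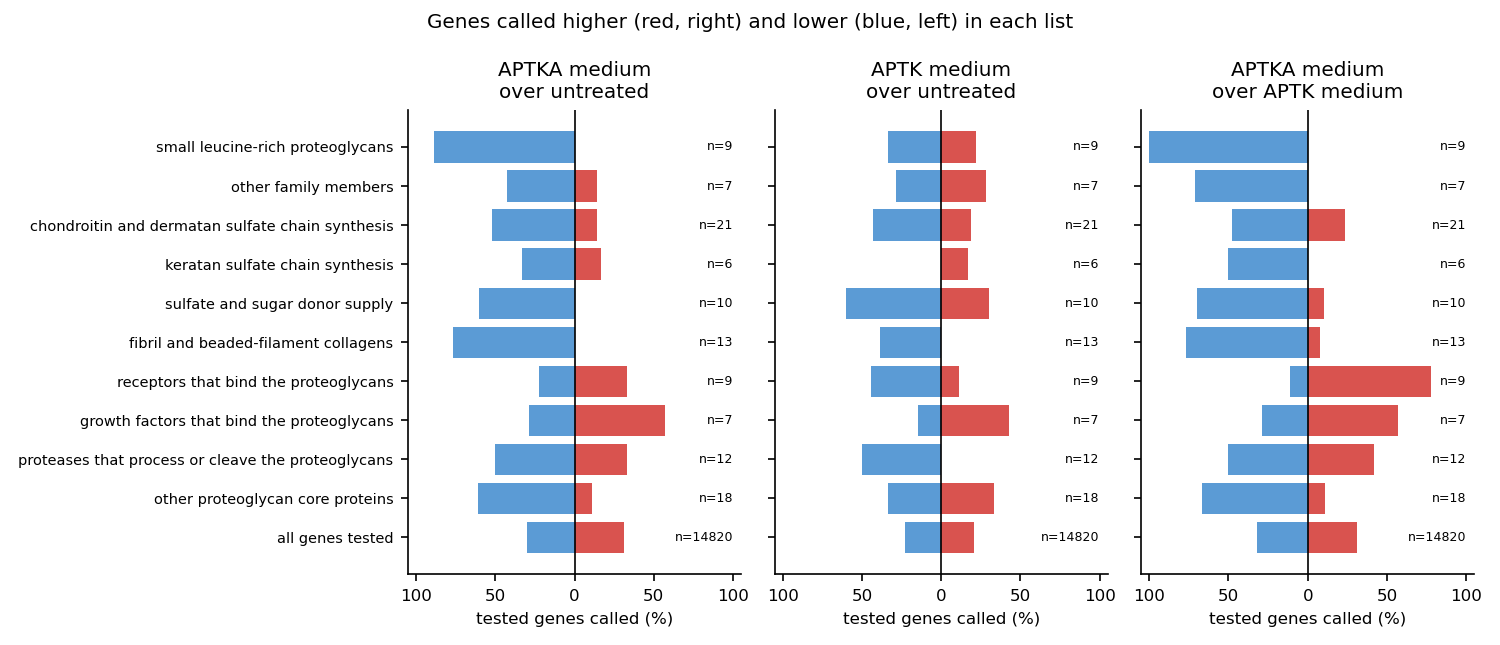
Share of tested genes called higher (red, to the right) and lower (blue, to the left) in each gene list (y axis) for APTKA over untreated, APTK over untreated and APTKA over APTK medium, with all 14820 genes tested in the lowest row. Of the 9 small leucine-rich proteoglycans 8, 3 and 9 are to the left, where all genes have 29.9%, 22.5% and 31.8%.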

How the data were processed

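Each library's deposited table gave whole-number read counts per Ensembl gene, not normalised, which the authors made with bcl2fastq 2.20.0.422, STAR 2.5.2a and featureCounts 1.5.0-p1 on mm10, per the submitters' processing notes. Which gene annotation and strand option were used, and how multiply matching reads were handled, is not given in the sources used here. Here R 4.3.3 and the edgeR 4.0.16 quasi-likelihood test were used (TMM scaling, robust estimates, the default filter by group). A single fit of 5 group means over 20 libraries had 15 residual degrees of freedom, and all 9 members passed the filter among 14820 genes tested. Benjamini-Hochberg adjustment ran over all of these genes, with calls at 5%. The SE was taken as the size of the log2 fold change divided by the root of F, and intervals are 95%. CPM uses TMM-scaled totals, and CPM per kb divides by union exon length (GENCODE M21). Symbols matched 47224 identifiers, and 505 had none. Ratios of neighbours were tested by exact permutation. Replicates differed beyond counting noise in every pair (chi-square over degrees of freedom from 4.79 to 88.2) and all were kept. This value was highest among irradiated APTK libraries (17.1 to 88.2), then untreated ones (9.78 to 41.6), and lay at 4.79 to 14.6 in the other groups. Other scalings, filters, fits and tools and leaving out each library were tried as alternatives. The members and lists were chosen with earlier results of these data known. All members are named in each comparison, and of each other list at most 3 called genes with the largest change, beside Tgfb1 to Tgfb3, Col1a1, Col3a1 and Vcan, which could be named whatever they did. Proteins were not analysed here.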

Additional observations from a re-analysis of the deposited data

Results flagged for a closer look

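In 5 of 45 groups of 4 libraries (9 genes in 5 groups) a single library stood far from the others by Dixon's test at 95%, which chance gives in about 1 of 20 groups. Dcn had 1593 CPM in APTKA replicate 2, above the other 3 at 1351 to 1378 CPM. Dcn had 2151 CPM in untreated replicate 4, below the other 3 at 2585 to 2647 CPM. Aspn had 2274 CPM in irradiated APTK replicate 2, above the other 3 at 1613 to 1719 CPM. Fmod had 0.788 CPM in irradiated APTKA replicate 4, below the other 3 at 1.44 to 1.55 CPM, on 22 counts. Prelp had 17.1 CPM in irradiated APTK replicate 4, above the other 3 at 9.22 to 10.1 CPM. These libraries changed no call of the gene concerned when left out.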

How the results depend on the processing

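The counts of members called kept within 1.5 times of the values above in 290 of 304 checks over all comparisons and alternatives, and 14 moved. Counts higher and lower entered separately, and the 290 include counts that were 0 and stayed at 0. With irradiated APTK medium over untreated cells none rose, but 1 did with upper quartile scaling, unscaled totals or a fit of only those groups, 2 with no filter, and 0 to 1 on leaving out each replicate. With irradiated over plain APTK medium none fell, but 2 did with no filter, 1 in DESeq2 and 0 to 2 on leaving out each replicate. With APTK medium over untreated cells the number that rose was 1 to 2 on leaving out each replicate. Fmod in irradiated over plain APTKA medium (0.02) turned to -0.0019 with upper quartile scaling and -0.0434 with unscaled totals. On leaving out each replicate the sign of 10 uncalled log2 differences turned. Their ranges were -0.11 to 0.25 (Fmod), -0.0686 to 0.0459 (Ogn) and -0.18 to 0.0056 (Dcn) for irradiated over plain APTKA medium. For irradiated over plain APTK medium they were -0.0229 to 0.12 (Bgn), -0.18 to 0.0033 (Aspn) and -0.0434 to 0.11 (Dcn). They were -0.32 to 0.12 for Prelp with APTK medium over untreated cells, -0.0374 to 0.17 for Ogn with irradiated APTK medium over untreated cells, and -0.24 to 0.10 (Lum) and -0.0182 to 0.13 (Bgn) for the difference of irradiation effects. Replicate numbers did not pair the libraries (40 same-number correlations of deviations from -0.108 to 0.0959, 10 of 40 highest with the own number). The replicate block left the count of members called lower at 8 with APTKA medium over untreated cells and moved no count by over 1.5 times. Unscaled totals shifted the median of all genes in that comparison to 0.16, from 0.00 with TMM, and gave 6319 genes higher and 3165 lower, against 4668 and 4428. The cause of these changes was not tested. Omd, Fmod and Prelp rest on 21 to 76 counts a library with either APTKA medium, and Omd and Fmod on 43 to 173 with either APTK medium, which limits what can be seen there.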
